A study of Homo sapiens with 4 samples.

Results

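Genes of epithelial adhesion and of the mesenchymal state were followed in 4 RNA-seq libraries of 2 human cancer cell lines. The set holds 40 genes, 25 epithelial and 15 mesenchymal, chosen by symbol. The choice was made with earlier results of these data known, so counts and medians over the set are a description only. All 40 were found among the 59533 genes analysed, and all 40 had values in every library. HCC1937 was derived from a breast carcinoma, and THP-1 grows as monocyte-like cells of an acute leukaemia. By their labels all 4 samples are p53-/- and were infected with p53-R282W, a missense form of this tumour suppressor, so the untreated controls carry it too. No library without the mutant was analysed here. Each line has 1 untreated library and 1 library after decitabine (DAC), a nucleoside drug that traps DNA methyltransferases, so that methylation is lost as cells divide. The dose was 0.3 µM over 5 days in HCC1937 and 5 µM over 2 days in THP-1. Dose and time thus differ between the lines along with the cell type, and these cannot be told apart.

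Epithelial cells hold together through 3 kinds of junction. Adherens junctions are built on cadherins such as CDH1 (E-cadherin), tight junctions on claudins and occludin, and desmosomes on desmogleins, desmocollins and plakophilins that tie into keratin filaments. In the epithelial-mesenchymal transition, transcription factors of the ZEB, SNAI and TWIST families repress many of these junction genes, and cells gain vimentin, N-cadherin and contractile proteins. CDH1 is a known target of promoter methylation in breast cancer, and blood cells express several transition factors and vimentin as part of their normal programme.

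Levels are in FPKM, a read number per exon length and per library size. Their spacing puts the depth at 18.7 and 18.6 M counted reads in untreated and DAC HCC1937, and at 19.5 and 19.7 M in untreated and DAC THP-1. Since every group is a single library, replicate error is unknown and within a line there is no test. Genes entered the comparison of a line if either library reached 1 FPKM (kept genes), and count as higher or lower past a 2-fold difference on log2(FPKM + 1). All log2 differences below are DAC minus untreated on that scale, which understates the difference of low genes. Ratios of FPKM carry an exact (Clopper-Pearson) 95% interval from estimated reads, which covers counting error only. The libraries carried the markers of their lines. All 7 breast epithelial markers, mainly keratins and 1 gene that is also on a related list below, reached 1 FPKM in both HCC1937 libraries. All 7 myeloid markers did in both THP-1 libraries, while 0 and 1 of them did in untreated and DAC HCC1937. Of the breast epithelial markers, 2 and 3 did in untreated and DAC THP-1, LAMB3 being the highest at 7.16 and 7.56 FPKM. In bulk RNA, a difference in the number of cells that express a gene and a difference in RNA per cell cannot be told apart.

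Untreated HCC1937 had an epithelial pattern. Of the 25 epithelial members, 24 stood at 1 FPKM or more, CLDN6 being the exception, and of the 15 mesenchymal members 5 did (VIM, SNAI1, SNAI2, AXL and TAGLN). Of all genes analysed, 20% reached that level in this library. The highest epithelial members were the claudins CLDN4 at 188 FPKM and CLDN7 at 181 FPKM, which ranked 226 and 236 among all genes, followed by CDH3 (P-cadherin) at 120 FPKM and the adhesion molecule EPCAM at 86.4 FPKM. The mesenchymal members summed to 68.0 FPKM, and AXL, a receptor tyrosine kinase, made up 66.6% of that sum at 45.3 FPKM. The epithelial members summed to 1051 FPKM, 15.45 times the mesenchymal sum. ZEB1 (0.15 FPKM), ZEB2 (0.04 FPKM), TWIST1 (0.19 FPKM) and TWIST2 (0 FPKM), all transition factors, were near or at 0.

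Untreated THP-1 lacked the epithelial pattern, with 4 of 25 epithelial and 9 of 15 mesenchymal members at 1 FPKM or more, against 49.5% of all genes with THP-1 values. The epithelial count lies below that share, while the mesenchymal count is not far from it. That share is over 23440 genes, and the 20% of untreated HCC1937 over 59533, so these shares cannot be set side by side. The genes at that level numbered 11608 in untreated THP-1 and 11909 in untreated HCC1937. The THP-1 values matched the exon lengths used here less well than the HCC1937 values and may rest on other gene lengths, so levels are set across lines only roughly. VIM, the intermediate filament of mesenchymal and blood cells, stood at 126 FPKM and TWIST1 at 113 FPKM, which together made up 44.9% and 40.2% of the mesenchymal sum. ZEB2 stood at 24.6 FPKM and TWIST2 at 4.23 FPKM. Below 1 FPKM were SNAI2 (0.56 FPKM), PDGFRB and ACTA2 (0.38 FPKM each), THY1 (0.07 FPKM), PDGFRA (0.05 FPKM) and CNN1 (0 FPKM). The mesenchymal sum of THP-1 thus rests mainly on VIM and TWIST1. Among epithelial members CLDN7 stood out at 17.7 FPKM. The other 3 at 1 FPKM or more were the desmosomal cadherins DSG2 (4.30 FPKM) and DSC2 (1.33 FPKM) and the transcription factor OVOL2 (1.61 FPKM). CDH1 was at 0.03 FPKM and EPCAM at 0.06 FPKM, and CLDN1, CLDN3, DSP and DSG3 were listed at 0.

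**Figure D1:**
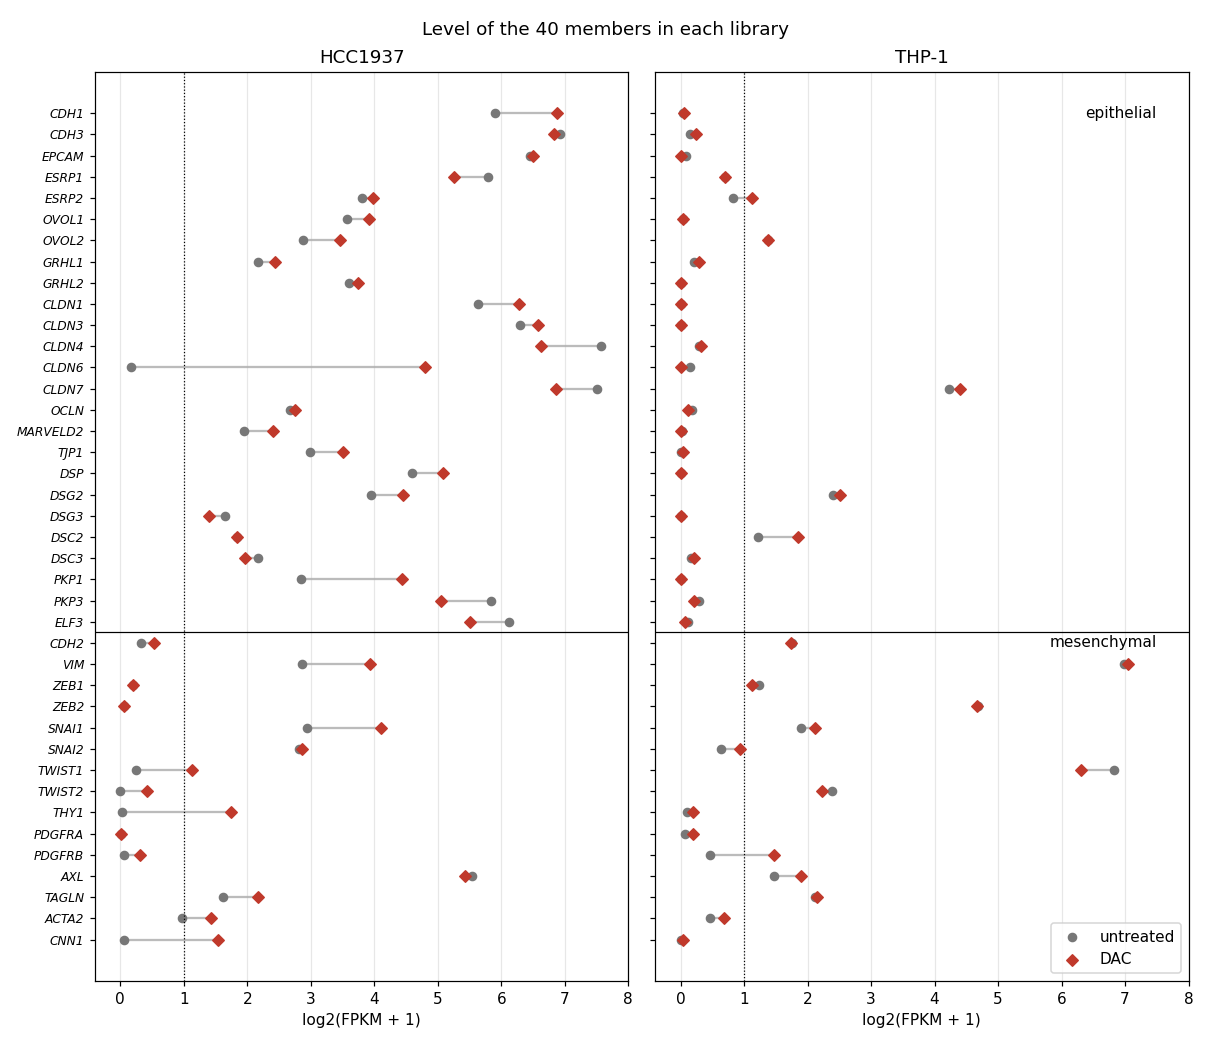
Level of each of the 40 members on log2(FPKM + 1) in HCC1937 (left) and THP-1 (right), untreated (grey circles) and with DAC (red diamonds), 1 library each; the dotted line marks 1 FPKM. Epithelial members lie mostly right of 1 FPKM in HCC1937 and left of it in THP-1. VIM, TWIST1 and ZEB2 are the highest mesenchymal members in THP-1 and AXL in untreated HCC1937, and CLDN6 in HCC1937 has the longest line between its 2 libraries, from 0.12 to 26.7 FPKM.

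With DAC, the epithelial members of HCC1937 had nearly the same sum as untreated, while single members differed in both directions. By the 2-fold rule 2 of the 25 were higher with DAC (CLDN6 and PKP1) and 0 were lower. Over all 14058 genes kept in HCC1937, 10.3% were higher and 1.44% lower by the same rule. The median log2 difference of the 25 members was 0.18, beside 0.19 over all kept genes, and 12 of the 25 lay above that median of all genes. Their sum was 1051 FPKM untreated and 1001 FPKM with DAC. All 25 members stood at 1 FPKM or more with DAC, a level that 23% of all genes reached in that library. By a second rule, a counting interval wholly beyond 2-fold, the same 2 members were higher and 0 lower, against 10.2% and 0.886% of all genes.

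Among the cadherins, CDH1 stood apart from CDH3. CDH1 (ENSG00000039068.18, chromosome 16, 68737225 to 68835548) stood at 58.5 FPKM untreated and 116.7 with DAC, a ratio of 1.995 (interval 1.94 to 2.06) that lies just under the 2-fold rule, at a log2 difference of 0.98. CDH3, the P-cadherin of basal epithelium, stood at 120 and 113 FPKM. The ratio of CDH1 to CDH3 within a library, which no scaling of libraries can alter, was 0.486 untreated and 1.04 with DAC. EPCAM differed little, at 86.4 and 89.3 FPKM.

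The tight junction genes held the largest difference of the set. CLDN6 (ENSG00000184697.6, chromosome 16, 3014712 to 3020071), a claudin of embryonic epithelia that most adult tissues lack, stood at 0.12 FPKM untreated and 26.7 with DAC. That is about 4 and 866 estimated reads, a ratio of 223 with an interval of 84.6 to 799.8 and a log2 difference of 4.63. In the order of levels it moved from rank 18007 to rank 1999 among all genes. Only the DAC library brought CLDN6 past the filter. The nearest claudin gene, CLDN9, ends at 3014505 on the same chromosome, just before CLDN6, and stood at 1.65 and 4.18 FPKM. CLDN9 is similar in sequence and strand use in counting is not given in the sources used here, so the split of reads between both genes is uncertain.

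The other claudins went in different directions below the 2-fold rule. CLDN4 went from 188 FPKM in the untreated to 98.1 in the DAC library (log2 -0.93) and CLDN7 from 181 to 114.9 (log2 -0.65). CLDN1, a barrier claudin of stratified epithelia, stood at 48.6 and 76.2 FPKM (log2 0.64) and CLDN3 at 77.2 and 94.9 FPKM (log2 0.29). As shares of the sum of these 5 claudins, CLDN4 made up 37.9% untreated and 23.9% with DAC, CLDN1 9.81% and 18.6%, and CLDN6 0.02% and 6.50%. The sum itself was 495 and 411 FPKM, CLDN6 included. The levels of the 4 claudins expressed untreated lay between 48.6 and 188 FPKM untreated and closer together in the DAC library, between 76.2 and 114.9 FPKM. Occludin (OCLN) stood at 5.41 and 5.74 FPKM. MARVELD2 (tricellulin), which seals the points where 3 cells meet, stood at 2.87 and 4.31 FPKM, and the scaffold TJP1 (ZO-1) at 6.95 and 10.4 FPKM.

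**Figure D2:**
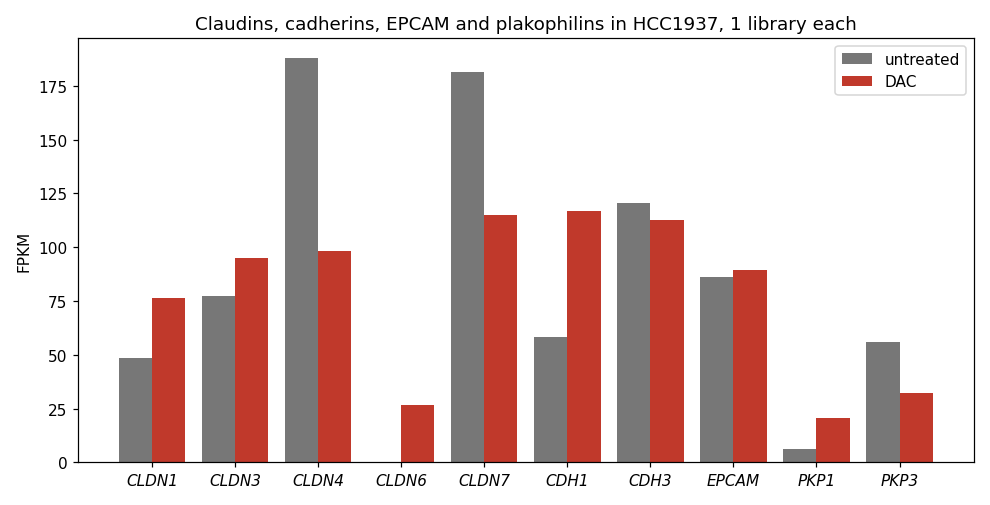
FPKM of 5 claudins, 2 cadherins, EPCAM and 2 plakophilins in untreated (grey) and DAC-treated (red) HCC1937, 1 library per bar and no error bars. CLDN4, CLDN7 and PKP3 have the lower bar with DAC, CDH1, CLDN1, CLDN3, CLDN6 and PKP1 the higher one, and CDH3 and EPCAM bars are close to equal.

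Among desmosome genes the 2 plakophilins, armadillo proteins of the desmosomal plaque, differed in opposite directions. PKP1 (ENSG00000081277.12, chromosome 1, 201283452 to 201332993), typical of stratified epithelium, stood at 6.17 FPKM untreated and 20.6 with DAC, a ratio of 3.33 (interval 3.07 to 3.63) and a log2 difference of 1.59. PKP3 stood at 56.1 and 32.1 FPKM (log2 -0.79), so the ratio of PKP3 to PKP1 was 9.10 untreated and 1.56 with DAC. The plaque protein DSP (desmoplakin) stood at 23.1 and 32.8 FPKM and DSG2, the widely expressed desmoglein, at 14.4 and 21.0 FPKM, both with log2 differences near 0.50 (0.49 and 0.51). DSG3, DSC2 and DSC3 stood between 1.62 and 3.51 FPKM in both libraries, with log2 differences of -0.27, 0.00 and -0.20.

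None of the 7 epithelial regulators was past 2-fold, beside 10.3% of all kept genes higher and 1.44% lower. In so few genes a count of 0 cannot be set apart from those shares. ESRP1, which sets the epithelial splicing pattern of many transcripts, had 54.0 and 37.2 FPKM in the untreated and DAC libraries, a log2 difference of -0.53. Its relative ESRP2 had 12.9 and 14.8 FPKM. ELF3, an epithelial ETS factor, stood at 68.6 and 44.5 FPKM (log2 -0.61). OVOL2, which represses ZEB1 and other mesenchymal genes, stood at 6.33 and 9.99 FPKM (log2 0.58). OVOL1, GRHL1 and GRHL2, factors that maintain junction gene expression, had log2 differences of 0.35, 0.27 and 0.14.

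Most mesenchymal members of HCC1937 were low. AXL was the highest, and VIM, SNAI1 and SNAI2 stood at 6.04 FPKM or more in both libraries. Of the 15 members, 4 were at least 2-fold higher (SNAI1, VIM, THY1 and CNN1), 0 were lower, 5 were kept and not past 2-fold, and 6 stayed below 1 FPKM in both libraries. Under median-of-ratios scaling the higher members were 2, since VIM (log2 0.89) and SNAI1 (log2 0.98) were then not past 2-fold. Of the 9 kept, 4 reached 1 FPKM in the DAC library only (TWIST1, THY1, ACTA2 and CNN1), and such members could only be higher, so the count is not a measure of the set. Over all 15 members the median log2 difference was 0.42, beside 0.0 over all genes analysed, most of them listed at 0 untreated. Over the 9 kept it was 0.87, beside 0.19 over all kept genes. The same limit holds for the median of the 9, which includes the 4 members kept through the DAC library only. The background is the same 10.3% of kept genes higher and 1.44% lower. The sum of the 15 was 68.0 FPKM untreated and 90.8 with DAC, and the epithelial sum was 15.45 and 11.02 times the mesenchymal one. By the counting interval 5 were higher, the other one being TWIST1, and 0 lower, against the same 10.2% and 0.886%.

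SNAI1 (Snail, ENSG00000124216.3, chromosome 20, 49982999 to 49988886), a repressor of CDH1, stood at 6.68 FPKM untreated and 16.3 with DAC. The ratio was 2.44 with an interval of 2.07 to 2.88, and the log2 difference 1.17. Its relative SNAI2 (Slug) stood at 6.04 and 6.30 FPKM. Among the other transition factors, ZEB1 was at 0.15 FPKM and ZEB2 at 0.04 FPKM in both libraries. TWIST1 stood at 0.19 and 1.18 FPKM, about 7 and 45 estimated reads, a ratio of 6.21 (interval 2.89 to 17.0) whose log2 difference was 0.87 because of the pseudocount. TWIST2, listed at 0 untreated, stood at 0.34 FPKM with DAC. The DAC library thus held the higher level of both CDH1 and SNAI1.

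VIM (ENSG00000026025.15, chromosome 10, 17228259 to 17237593) stood at 6.24 FPKM untreated and 14.3 with DAC, a ratio of 2.29 (interval 2.08 to 2.53) and a log2 difference of 1.08. CDH1 was 9.38 times VIM untreated and 8.15 times with DAC. CDH2 (N-cadherin) was low in both libraries, at 0.25 and 0.44 FPKM.

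Of the surface proteins, THY1 (ENSG00000154096.13, chromosome 11, 119417378 to 119424985), a glycoprotein of fibroblasts, neurons and T cells, stood at 0.02 FPKM untreated and 2.34 with DAC. That is about 2 and 258 estimated reads, a ratio of 117 (interval 35.5 to 1075) and a log2 difference of 1.71. AXL, the highest mesenchymal member in both libraries, stood at 45.3 and 42.1 FPKM. The platelet-derived growth factor receptors PDGFRA (0.01 FPKM in both libraries) and PDGFRB (0.04 and 0.24 FPKM) were low. Fibroblast collagens and proteoglycans were low in these libraries. Of the 7 genes of the fibroblast list, which includes PDGFRB, only COL1A1 reached 1 FPKM, at 3.24 FPKM untreated and 8.86 with DAC, and the list summed to 3.30 and 9.36 FPKM. COL1A2, COL3A1, DCN and LUM were listed at 0 untreated and DCN was at 0 with DAC.

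Of the 3 contractile genes, all low, 1 was past 2-fold (CNN1, kept through the DAC library only), beside 10.3% of all kept genes higher. CNN1 (calponin, ENSG00000130176.7, chromosome 19, 11538717 to 11550323), a smooth muscle actin-binding protein, stood at 0.04 FPKM untreated and 1.92 with DAC. About 2 and 103 estimated reads stand behind these values, with a ratio of 48.0 (interval 14.0 to 433) and a log2 difference of 1.49. TAGLN (transgelin) stood at 2.07 and 3.49 FPKM and ACTA2 (smooth muscle actin) at 0.97 and 1.69 FPKM, with log2 differences of 0.55 and 0.45. The 3 smooth muscle markers that are not in the set summed to 0.31 FPKM untreated and 3.75 with DAC, of which DES (desmin) made up 3.63 FPKM with DAC. The 4 endothelial markers summed to 2.77 and 8.32 FPKM, with 1 and 3 of them at 1 FPKM or more and PECAM1 at 1.71 and 5.13 FPKM. KDR was listed at 0 untreated. The 7 myeloid markers summed to 0.80 and 2.61 FPKM. The part of these 4 marker lists in the values of VIM, SNAI1, THY1 and CNN1 was not tested.

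**Figure D3:**
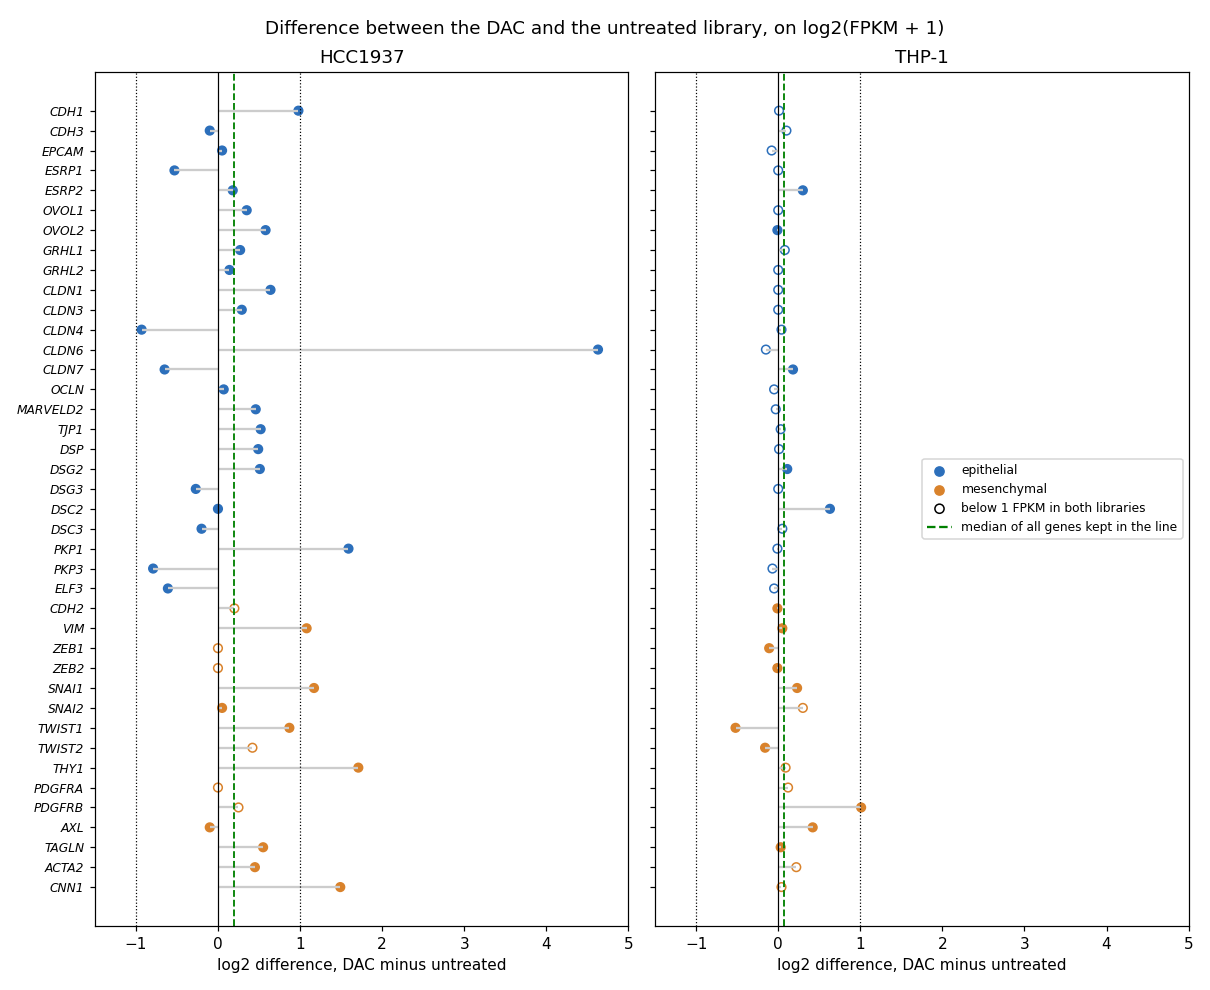
The log2 difference between the DAC and the untreated library for each member in HCC1937 (left) and THP-1 (right), epithelial in blue and mesenchymal in orange. Open circles are members below 1 FPKM in both libraries, dotted lines mark 2-fold, and the green dashed line is the median of all genes kept in the line (0.19 and 0.07). In HCC1937 the points spread from -0.93 to 4.63, in THP-1 from -0.52 to 1.01.

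The deposited HCC1937 values carry a general shift, and several differences near 2-fold depend on it. The median of 0.19 over all kept genes became 0.01 under median-of-ratios scaling and 0.05 under upper-quartile scaling, and higher genes made up 87.8% of those past 2-fold as deposited (1455 higher, 202 lower) against 76.3% (1158 and 360) and 79.2% (1205 and 317). CLDN6, PKP1, THY1 and CNN1 were past 2-fold under all 3. VIM was no longer past 2-fold, with a log2 difference of 0.89 under the first scaling and 0.93 under the second. SNAI1 stood at 0.98 under median-of-ratios and 1.02 under upper-quartile scaling. CLDN4 passed the rule on the lower side under both, at -1.14 and -1.10, while PKP3 did not pass it under either, lying at its edge to 2 decimals under median-of-ratios scaling and at -0.95 under upper-quartile scaling. CDH1 moved away from the rule, to 0.77 and 0.82. Under median-of-ratios scaling 2 epithelial members were thus higher and 1 lower, and 2 mesenchymal members higher and 0 lower.

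**Figure D4:**
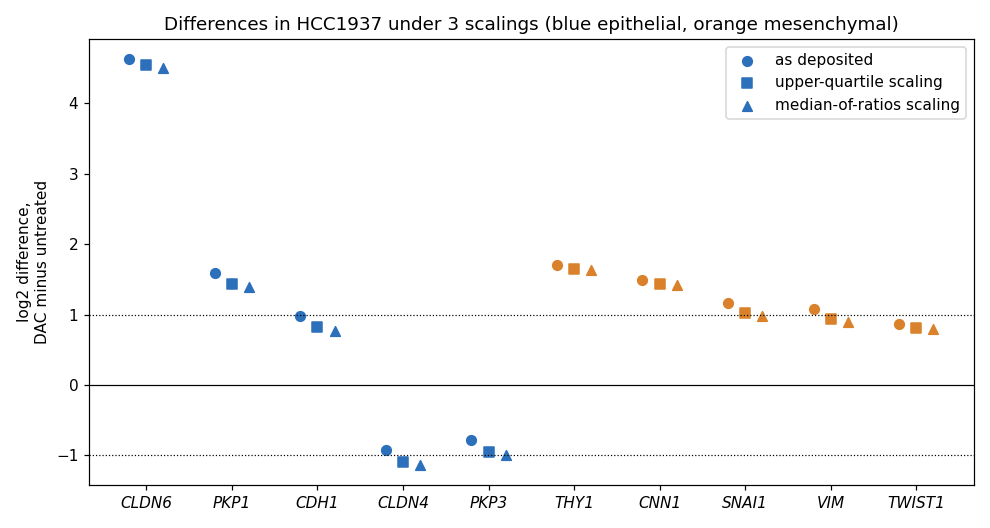
The log2 difference in HCC1937 of 10 members past or near 2-fold (dotted lines) as deposited (circles), under upper-quartile scaling (squares) and under median-of-ratios scaling (triangles), epithelial in blue and mesenchymal in orange. CLDN6, PKP1, THY1 and CNN1 stay above the upper line, VIM and SNAI1 sit at it, and CLDN4 crosses the lower line.

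In THP-1 few members were expressed on the epithelial side, and the 2-fold rule found 1 mesenchymal member. Of the 25 epithelial members 0 were past 2-fold in either direction, 5 were kept and 20 were below 1 FPKM in both libraries. Of the 15 mesenchymal members 1 was higher (PDGFRB), 0 were lower, 9 were kept and not past 2-fold, and 5 were below 1 FPKM. Over all 12075 genes kept in THP-1, 1.14% were higher and 0.364% lower. The median log2 difference over kept members was 0.18 for the 5 epithelial and 0.01 for the 10 mesenchymal ones, beside 0.07 over the kept genes of the line. Over all members, kept or not, it was 0.00 and 0.05, beside 0.00 over all genes with values. With DAC 5 epithelial and 10 mesenchymal members reached 1 FPKM, against 50.9% of all genes with values. By the counting interval PDGFRB alone was higher and 0 members were lower, against 0.572% and 0.0249% of all genes.

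PDGFRB (ENSG00000113721.13, chromosome 5, 150113837 to 150155872), a receptor of stromal cells, stood at 0.38 FPKM untreated and 1.78 with DAC. The ratio was 4.68, with an interval of 3.47 to 6.42 that rests on approximate exon lengths in this line, and the log2 difference of 1.01 lay at the rule's edge, becoming 0.97 under median-of-ratios and 0.99 under upper-quartile scaling. It reached 1 FPKM in the DAC library only. The fibroblast list, PDGFRB included, summed to 1.22 and 4.65 FPKM, with COL1A1 at 0.50 and 2.08 FPKM. The part of these markers in the PDGFRB value was not tested.

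TWIST1, the highest transition factor of THP-1, had 113 and 78.2 FPKM in the untreated and DAC libraries, the largest difference on the lower side (log2 -0.52, ratio 0.693 with an interval of 0.661 to 0.725). ZEB2 (24.6 and 24.4 FPKM), TWIST2 (4.23 and 3.68 FPKM), ZEB1 (1.35 and 1.18 FPKM) and CDH2 (2.36 and 2.34 FPKM) differed less. VIM stood at 126 and 130.4 FPKM, a log2 difference of 0.05 that turned to -0.03 under median-of-ratios scaling, and SNAI1 at 2.71 and 3.34 FPKM. AXL stood at 1.78 and 2.71 FPKM (log2 0.42). On the epithelial side CLDN7 stood at 17.7 and 20.1 FPKM and made up over 98% of the claudin sum in both libraries (98.2% and 98.8%). DSC2 had the largest epithelial difference, 1.33 and 2.60 FPKM (log2 0.63). CLDN6, past 2-fold in HCC1937, stood at 0.11 FPKM untreated and was listed at 0 with DAC, and CDH1 stood at 0.03 and 0.04 FPKM.

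A single fit over both lines called none of the 10 members it could hold. The limma model took line as a block and held the 9798 genes kept in both lines, 10 of them members. Of the members past 2-fold in a line it held only VIM and SNAI1. CLDN6, PKP1, THY1, CNN1 and PDGFRB, and also CDH1, were not kept in both lines, so the fit says nothing about them. With Benjamini-Hochberg adjustment 0 genes passed 0.05, in either direction (0%), and 0 members did. The smallest adjusted limma p of any gene was 0.0831, so the 0 among members is not particular to them. The smallest unadjusted limma p among members was that of SNAI1, 0.0389 (adjusted 0.642), with a mean log2 difference of 0.70. Its value was higher with DAC in both lines. In THP-1, however, its ratio of 1.23 had an interval of 0.925 to 1.65, so no direction is shown in that line. At an unadjusted p below 0.05 the fit held 504 higher genes (5.14%) and 121 lower (1.23%), and 1 of the 10 members. VIM had a mean log2 difference of 0.57 and an adjusted limma p of 0.642. The error term of this fit is how far the lines disagree, and the lines also differ in dose and time.

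Related genes outside the set were counted in 7 lists by the same rule. In HCC1937, 136 of 136 listed genes were found and 103 were kept. Of these, 7 were higher and 0 lower, and 6 of the 7 were in the list of other mesenchymal genes, which had 20 of 28 kept. The lists of adherens junction partners (13 of 18 kept), other tight junction genes (11 of 25), other desmosome and hemidesmosome genes (14 of 17), polarity genes (11 of 11) and TGF-beta pathway genes (17 of 20) had 0 past 2-fold in either direction, and their medians lay between 0.05 and 0.20. Other epithelial regulators and surface proteases had 1 of 17 higher and 0 lower, at a median of -0.02. The background is again 10.3% higher and 1.44% lower. Only the mesenchymal list had a larger share higher (6 of 20), and with 1 library per group no test stands behind it. The lists were chosen with earlier results of these data known, so this share is not independent support. The 6 became 4 under median-of-ratios scaling, 5 under upper-quartile scaling, 2 with a pseudocount of 10 and 7 with 0.1. Higher genes among all 14058 kept were then 1158, 1205, 131 and 2326. The 0 of the other lists also depends on the pseudocount, which hides differences of low genes. At 0.1, 2 adherens junction partners were higher, and 1 gene each of the tight junction, desmosome and TGF-beta lists. The polarity list stayed at 0. Under either scaling 1 adherens junction partner was lower.

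The higher genes of the mesenchymal list were led by TPM2 and S100A4. TPM2, a tropomyosin of actin filaments, had 1.33 and 25.6 FPKM in the untreated and DAC libraries (log2 3.51, ratio interval 15.3 to 24.3). S100A4, a calcium-binding protein linked to cell motility, stood at 47.8 and 185 FPKM (log2 1.93). MYL9, a myosin light chain, stood at 2.30 and 8.86 FPKM (log2 1.58) and SPARC, a secreted matrix protein, at 6.54 and 16.3 FPKM (ratio interval 2.27 to 2.75). PRRX2, a homeobox factor (log2 1.19), and ITGA5, the fibronectin receptor subunit (log2 1.12), were the other 2, and were named after their values were seen. All 6 reached 1 FPKM untreated. MUC1, a mucin of the apical surface of glandular epithelium, was the higher gene among the epithelial regulators and surface proteases, at 3.52 and 19.4 FPKM (log2 2.17). In THP-1, 62 of the 130 listed genes with values were kept, with 1 higher and 0 lower. This was SPARC, with 0.24 and 2.57 FPKM (log2 1.53), which reached 1 FPKM in the DAC library only.

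**Figure D5:**
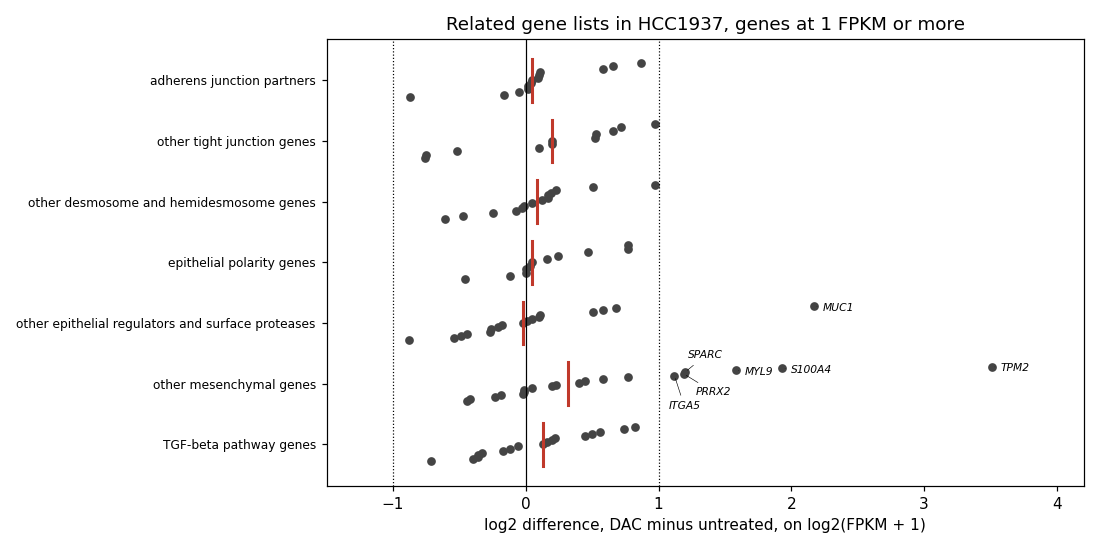
The log2 difference in HCC1937 of each kept gene of 7 related lists (points), with the list's median (red bar) and dotted lines at 2-fold; genes past 2-fold are named. Past the upper line lie 6 genes of the mesenchymal list, from ITGA5 at 1.12 to TPM2 at 3.51, and MUC1 at 2.17.

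Decitabine leads to loss of methylation at CpG sites as cells divide. The promoters of members past 2-fold in a line are therefore shown for their CpG content. RefSeq windows (GRCh38.p14) of the 250 bases before the start site matched 26 of the 40 members and 5 of the 7 past 2-fold. For PKP1, VIM, CNN1 and PDGFRB the stretch outside annotated exons is printed 5′ to 3′ on the gene's strand, in lower case with each CpG in capitals. They are PKP1 (+, chr1:201283256-201283451), VIM (+, chr10:17227991-17228240), CNN1 (+, chr19:11538601-11538716) and PDGFRB (-, chr5:150155873-150156095).
PKP1: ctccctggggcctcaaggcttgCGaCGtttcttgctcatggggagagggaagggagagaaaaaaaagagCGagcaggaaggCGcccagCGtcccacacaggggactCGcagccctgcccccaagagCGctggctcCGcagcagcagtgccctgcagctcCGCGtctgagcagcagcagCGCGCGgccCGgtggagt
VIM: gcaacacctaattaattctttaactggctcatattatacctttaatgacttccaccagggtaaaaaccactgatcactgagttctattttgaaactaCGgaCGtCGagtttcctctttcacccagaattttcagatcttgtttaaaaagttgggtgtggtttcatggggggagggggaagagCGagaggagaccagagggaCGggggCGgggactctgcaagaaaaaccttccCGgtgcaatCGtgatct
CNN1: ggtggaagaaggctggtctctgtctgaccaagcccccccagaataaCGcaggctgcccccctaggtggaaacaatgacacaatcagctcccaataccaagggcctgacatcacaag
PDGFRB: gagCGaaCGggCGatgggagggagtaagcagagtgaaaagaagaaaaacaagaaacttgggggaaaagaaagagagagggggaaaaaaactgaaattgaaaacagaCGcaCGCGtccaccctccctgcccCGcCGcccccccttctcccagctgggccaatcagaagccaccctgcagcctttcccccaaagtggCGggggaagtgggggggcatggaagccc
The printed stretches hold 14 CpG in 196 bases (PKP1), 8 in 250 (VIM), 1 in 116 (CNN1) and 9 in 223 (PDGFRB). In the whole 250 bases CLDN6 had 18 CpG, PKP1 17, PDGFRB 9, VIM 8 and CNN1 6, a median of 9 beside a median of 17 over 21021 windows of protein-coding genes and of 18 over 37 windows of the 21 other matched members. SNAI1 and THY1, also past 2-fold, had no window. CDH1, not past 2-fold, had none either. Which start site the cells used was not determined, so a window need not be the promoter in use, for VIM as for the others. A median over 5 windows is thus a description only. Methylation was not measured in these libraries.

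The same windows were searched for the E-box CACCTG, read on both strands (CAGGTG), which ZEB and SNAI factors are known to bind. It occurred in 8 of 22 windows of epithelial members (36.4%), in 3 of 20 windows of mesenchymal members (15%) and in 17% of windows of protein-coding genes. None of the 5 windows of members past 2-fold held it. Some genes have several windows. By gene, it occurred in 7 of 16 epithelial and 2 of 10 mesenchymal members, and in 3220 of 14896 protein-coding genes. CDH1 was not among the genes searched, and a match describes the letters only.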

How the data were processed

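Per the labels' protocols, mRNA was purified from total RNA and TruSeq libraries were sequenced. Per the submitters' processing notes, the tools were HTSeq, STAR, cutadapt and FastQC and the build hg38; versions, annotation, strand use and the later normalization are not given in the sources used here. The unit is unnamed in the deposited table. FPKM computed by the authors was inferred, because value times GENCODE 29 exon length falls on whole multiples of 1 step, within 0.1, in 92.3% to 95.8% of short genes (50 to 250 bp). That step gives the depth of 18.6 to 19.7 M reads. At 500 to 800 bp, 88.2% to 89.0% of low HCC1937 values but 54.5% to 61.7% of low THP-1 values were whole within 0.15, so THP-1 read estimates and intervals are approximate.

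The 1079 lines of 76 repeated symbols were left out of 60612. Reads per gene were estimated from FPKM, depth and exon length; FPKM has 2 decimals, so ratios of values below 0.1 are coarse. The pseudocount was 1. limma 3.58.1 (R 4.3.3) was fitted to log2(FPKM + 1); intervals came from scipy 1.17.1 under Python 3.11.15. Scripts were tested on simulated data. Members and lists were chosen with earlier results of these data known. Every member is reported; of each related list at most 4 genes per line, past 2-fold and at 2 FPKM or more, were to be named. Alternatives were 2 scalings, other filters and pseudocounts, other limma settings and, chosen after seeing the data, the counting interval as a rule. Coordinates are from GENCODE 29 (hg38) and promoters from RefSeq.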

Additional observations from a re-analysis of the deposited data

Results flagged for a closer look

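For 4 members kept in both lines, the FPKM values of the DAC and untreated libraries differed in opposite directions in the lines. These differences between the lines were not tested, since each line has 1 library per condition. TWIST1 had a log2 difference of 0.87 in HCC1937 and -0.52 in THP-1, 1.39 apart, at levels of 0.19 and 113 FPKM untreated. In HCC1937 TWIST1 reached 1 FPKM in the DAC library only (1.18 FPKM), so once kept it could only be higher there. CLDN7 had -0.65 in HCC1937 and 0.18 in THP-1, which is -0.83 for HCC1937 minus THP-1. OVOL2 had 0.58 and -0.01, 0.59 apart, but in THP-1 it stood at 1.61 and 1.60 FPKM, about 68 and 69 estimated reads (ratio interval 0.707 to 1.42), so no direction is shown in that line. AXL had -0.10 and 0.42, which is -0.52 for HCC1937 minus THP-1.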

How the results depend on the processing

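With 1 library per group, neither replicate spread nor leave-one-out values exist. The line block of the limma fit pairs the untreated and DAC libraries of a line; there are no replicate numbers to pair within a line. In HCC1937 the 2 higher epithelial members became 1 with a pseudocount of 10, and the 0 lower became 1 under either scaling. The 4 higher mesenchymal members became 2 under median-of-ratios scaling, 2 with a filter of 5 FPKM and 0 with a pseudocount of 10. The epithelial median of 0.18 was -0.02 under median-of-ratios and 0.02 under upper-quartile scaling. The mesenchymal median of 0.87 was 0.42 without a filter, 0.57 at 5 FPKM, 1.19 with a pseudocount of 0.1 and 0.16 with 10. The 7 higher genes of the related lists became 14 with a pseudocount of 0.1 and 3 with 10, and 2 were lower under either scaling. In THP-1 the 1 higher mesenchymal member became 0 under either scaling, at 5 FPKM and with a pseudocount of 10. The 1 higher related gene became 0 at 5 FPKM and with a pseudocount of 10. The THP-1 epithelial median of 0.18 was 0.01 without a filter and 0.05 with a pseudocount of 10. The mesenchymal median of 0.01 was -0.05 under median-of-ratios scaling, -0.01 under upper-quartile scaling and -0.01 at 5 FPKM. At a detection level of 5 FPKM, 4 mesenchymal members were detected in DAC-treated HCC1937. In THP-1, 1 epithelial and 3 mesenchymal members were detected at that level untreated and with DAC alike. Beyond the altered scale, filter or pseudocount itself, the cause of these shifts was not tested. The limma fit had 0 members under each of its 4 other settings; without the line block 27 genes had an unadjusted p below 0.05 and 0 members did. By the counting interval wholly beyond 2-fold, 2 epithelial and 5 mesenchymal members of HCC1937 were higher, the fifth being TWIST1, against 10.2% of all kept genes with a length. Members at a few estimated reads (CLDN6, THY1 and CNN1 untreated) have the widest intervals.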
